A study of Homo sapiens and Mus musculus with 18 samples.

Results

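The keratin genes followed here, 10 in number, were read in every human RNA group of a study of mesothelium made from embryonic stem cells. They were chosen by name, with earlier results of these data known: 5 keratins of simple epithelia (KRT7, KRT8, KRT18, KRT19 and KRT20) and 5 keratins of stratified epithelia (KRT5, KRT6A, KRT14, KRT16 and KRT17). All 10 were found among the 63677 gene IDs of the files that hold 1 library each and among the 56299 gene IDs of a human table. All cells came from WA09, an established human embryonic stem cell line, and all began as splanchnic mesoderm, induced with WNT3A and BMP4. MesoT, the mesothelial cells, were given WNT3A at 25 ng/ml, BMP4 at 50 ng/ml and retinoic acid at 4 µM and were sampled at day 18 and at day 22. MesoT FCS were MesoT grown on plastic to passage 4 in 10% fetal bovine serum with FGF2 at 8 ng/ml. Mesothelium-like cells (MLC) were made directly from splanchnic mesoderm over 18 days in a defined medium without FGF2 and Activin A, with the TGF-beta receptor inhibitor SB431542 at 20 µM and retinoic acid at 4 µM. MesoT-derived MLC were MesoT replated into that same medium. Smooth muscle was splanchnic mesoderm left in culture and had 1 library, while each other group had 2. Being one cell line, the series holds no second donor, and nothing in the labels says that replicates were separate cultures, so the p-values measure the spread between these libraries only.

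Keratins build intermediate filaments as obligate pairs of one type I and one type II chain. KRT8 with KRT18 is the founding pair of simple epithelia, with KRT7 (type II) and KRT19 (type I) as further partners, and KRT20 is a type I keratin best known from gut and urothelium. KRT5 with KRT14 pairs in the basal layer of stratified epithelia, and KRT6A, KRT16 and KRT17 are known as keratins of skin appendages and of wounded or fast-growing epidermis. The type II genes KRT5, KRT6A, KRT7 and KRT8 lie on chromosome 12, and the type I genes KRT14, KRT16, KRT17, KRT19 and KRT20 on chromosome 17. KRT18 is the exception, a type I gene on chromosome 12 that neighbours KRT8.

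Promoter sequences, from 250 bases before to 50 bases after the start site, were found in RefSeq (GRCh38.p14) for 3 of the 10 genes: KRT5, KRT8 and KRT20. KRT20 and KRT5 are shown because each had counts in 1 kind of culture and almost none elsewhere. The KRT20 window is chr17:40885193-40885492 and the KRT5 window chr12:52520345-52520644, both on the minus strand and printed 5′ to 3′ with motif matches in capitals.
KRT20: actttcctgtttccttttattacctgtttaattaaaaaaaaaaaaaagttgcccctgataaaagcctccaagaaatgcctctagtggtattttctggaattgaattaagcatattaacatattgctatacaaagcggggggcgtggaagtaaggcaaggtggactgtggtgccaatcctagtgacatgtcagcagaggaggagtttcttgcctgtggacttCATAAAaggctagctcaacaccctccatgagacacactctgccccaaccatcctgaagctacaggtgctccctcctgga
KRT5: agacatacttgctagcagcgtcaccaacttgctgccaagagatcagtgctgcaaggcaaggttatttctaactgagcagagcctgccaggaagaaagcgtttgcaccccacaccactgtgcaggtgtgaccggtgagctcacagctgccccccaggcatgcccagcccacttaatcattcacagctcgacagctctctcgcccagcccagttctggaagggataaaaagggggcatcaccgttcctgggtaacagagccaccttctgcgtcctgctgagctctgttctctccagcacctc
Both strands were searched for 4 motifs. The core of the TATA box, TATAAA, was in 11.5% of 35116 promoter windows of this length. The GC box, read as GGGCGG, was in 45.0% of them. A palindrome of the type bound by AP-2 factors, GCCNNNGGC, was in 23.2%. The type bound by CDX factors, TTTATG, was in 10.6%. The only match in the KRT20 and KRT5 windows was in that of KRT20, where CATAAA, the reverse complement of the CDX type letters, begins at base 222 of the window, 29 bases before the start site. It overlaps no other match, although its letters differ from the TATA box core, TATAAA, only in the first. A match describes letters and was not tested for binding.

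Levels are given as CPM, counts scaled to 1000000 per library with TMM factors, separately for the one-library files and for the table, so levels were not compared across them. Totals ran from 21148477 to 70679258 counts per library, with the MLC libraries deepest. The day 18 samples were in both sets and did not agree fully: on library totals KRT18 was lower in the table by 0.52 and 0.51 on the log2 scale, KRT8 by 0.30 and 0.31, while KRT19 differed by 0.02 and 0.04. Markers were compared with the group labels. WT1, the mesothelial transcription factor, was at 25.9 and 46.2 CPM in day 18 MesoT, 217 and 148 in MLC, 5.58 and 3.40 in MesoT FCS and 0.0407 in smooth muscle. The 8 listed mesothelial genes, WT1 among them, did not all follow it. They summed to 33.9 CPM in smooth muscle against 194 and 278 at day 18, with 2 called higher and 3 lower in edgeR. Of all genes, 5.08% were called higher there and 3.58% lower. In MesoT FCS the 8 genes summed to 87.3 and 37.3 CPM, with 0 called higher than at day 18 and 3 lower. Of all genes, 13.0% were higher in MesoT FCS and 14.4% lower. In the smooth muscle library a list of 10 smooth muscle genes summed to 1267 CPM, between the 294 and 1696 of day 18 MesoT, and MYH11, the smooth muscle myosin, was at 8.62 CPM, also between the day 18 values. It is therefore called the library labelled smooth muscle below.

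**Figure D1:**
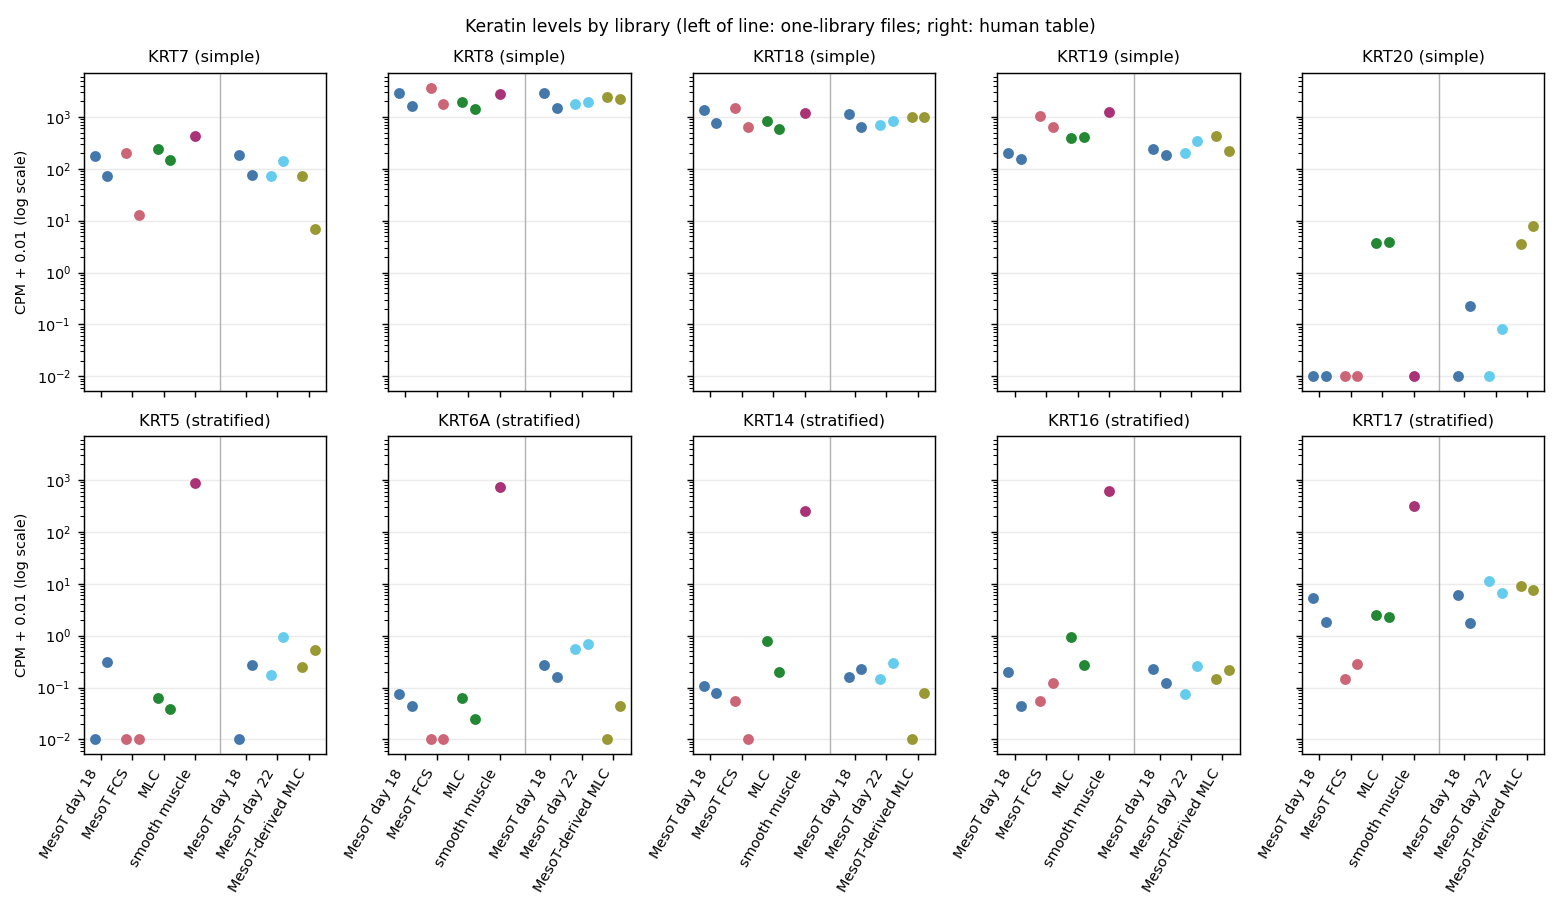
CPM plus 0.01 on a log scale for each of the 10 keratins, 1 point per library, by group; the one-library files stand left of the grey line and the human table right of it. KRT8 lies between 1451 and 3668 CPM in all 13 columns, KRT20 is above 1 CPM only in both kinds of MLC, and KRT5, KRT6A, KRT14 and KRT16 are above 1 CPM only in the library labelled smooth muscle.

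KRT8 and KRT18 were abundant in every library, and neither was called in any of the 8 comparisons. KRT19 and KRT20 differed between culture routes, and the 5 stratified keratins were high in the library labelled smooth muscle. In edgeR's quasi-likelihood test at an adjusted p under 0.05, MLC against day 18 MesoT called 2 of the 10 keratins higher and 0 lower, where 7.83% of the 23049 genes tested were higher and 16.8% lower. MesoT FCS against day 18 called 1 higher and 1 lower (13.0% and 14.4% of all genes). MLC against MesoT FCS called 3 higher and 1 lower (22.6% and 26.3%). For the library labelled smooth muscle, the comparison with day 18 called 6 higher and 0 lower (5.08% and 3.58%), that with MesoT FCS 5 and 0 (10.3% and 7.57%) and that with MLC 6 and 1 (21.3% and 13.0%). That group has a single library, whose spread was taken from the replicated groups, so these comparisons have no replicate check of their own. In the table, where 8 of the 10 passed the filter on low counts, day 22 against day 18 called 0 higher and 0 lower (0% and 0% of 22316 genes), and MesoT-derived MLC against MesoT called 1 and 1 (6.63% and 3.32%). Comparisons share groups, so their counts are not independent. The filter on low counts asks for 0.365 CPM in at least 1 one-library file. KRT6A reached that level only in the library labelled smooth muscle and KRT20 only in MLC, while KRT5, KRT14 and KRT16 reached it in the former and in 1 other library. In the table the level was 0.335 CPM, which KRT20 reached only in MesoT-derived MLC and KRT6A only at day 22. Of the genes called in either direction, 31.9% were higher for MLC against day 18, and scaling to library totals alone lowered this to 20.0%. The same scaling lowered it from 47.5% to 19.2% for MesoT FCS against day 18. For the library labelled smooth muscle against day 18 it fell from 58.7% to 32.9%, and for MLC against MesoT FCS it rose from 46.1% to 58.9%.

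**Figure D2:**
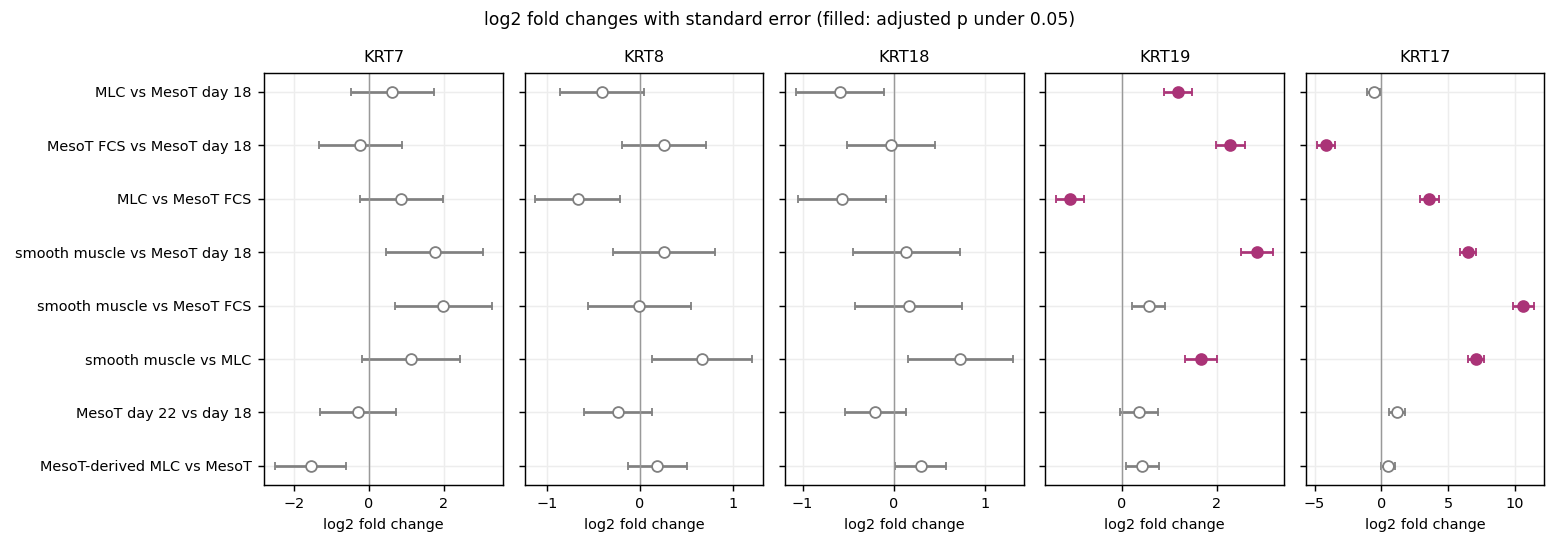
log2 fold changes (x axis) of KRT7, KRT8, KRT18, KRT19 and KRT17 in the 8 comparisons (y axis), with standard errors worked back from the edgeR F value as bars. Filled points have an adjusted p under 0.05. KRT8 and KRT18 have no filled point, KRT19 has 5 of 8 and KRT17 has 5 of 8.

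KRT8, the type II chain of the founding pair, was at 2925 and 1639 CPM in day 18 MesoT, 3668 and 1797 in MesoT FCS, 1980 and 1451 in MLC and 2720.5 in the library labelled smooth muscle. In the table it was at 2858 and 1517 CPM at day 18, 1809 and 1904 at day 22 and 2403 and 2183 in MesoT-derived MLC. The first replicate was the higher one in every pair of the one-library files, and most groups overlapped. In bulk RNA such as this, fewer cells of a type and less RNA per cell cannot be told apart. The log2 fold change from day 18 was -0.41 ± 0.45 in MLC and 0.26 ± 0.45 in MesoT FCS (SE, edgeR adjusted p = 0.543 and 0.683), so at this spread neither difference was detectable.

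KRT18, the type I partner, was at 1349 and 777 CPM at day 18, 1461 and 627 in MesoT FCS, 836 and 576 in MLC and 1169 in the library labelled smooth muscle. In the table it was at 1131 and 628 CPM at day 18, 712 and 818 at day 22 and 999 and 1013 in MesoT-derived MLC. In the one-library files the first replicate was again the higher one in every pair. The log2 fold change from day 18 was -0.59 ± 0.48 in MLC (edgeR adjusted p = 0.410) and -0.03 ± 0.48 in MesoT FCS (adjusted p = 0.975). With only the library labelled smooth muscle and MLC in the fit, KRT7, KRT8 and KRT18 were called higher in the former (log2 fold change 1.05, 0.59 and 0.65, edgeR adjusted p = 0.00281, 0.0292 and 0.0212), on 1 residual degree of freedom.

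The ratio of KRT18 to KRT8 counts, which needs no scaling, stayed between 0.349 and 0.474 over the 7 one-library files and between 0.393 and 0.464 over the 6 table columns. It still differed by file set. The same day 18 samples were at 0.461 and 0.474 in the one-library files but at 0.396 and 0.414 in the table. Within each set the highest ratio was 1.36 and 1.18 times the lowest. KRT7 to KRT8 ranged over 21.8-fold and 24.0-fold, and KRT19 to KRT8 over 6.84-fold and 2.1-fold. Across the 7 one-library files the log2 CPM of KRT18 followed KRT8 with Pearson r = 0.961, the closest of 9289 genes to KRT18, ahead of GDE1, WDR37, LMCD1 and SLC43A2. KRT18 was second to KRT8, behind GDE1 (r = 0.976). In the 6 table columns r was 0.964, where 23 genes followed KRT18 more closely than KRT8 did. These correlations are descriptions over few libraries that share groups and depth.

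**Figure D3:**
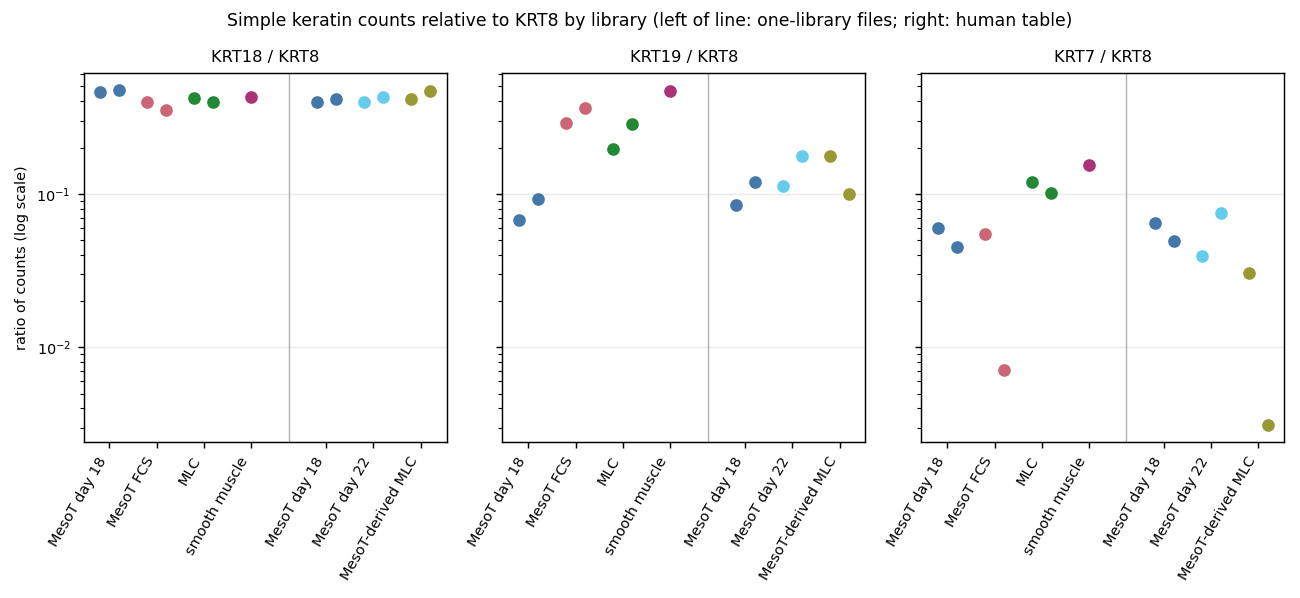
Counts of KRT18, KRT19 and KRT7 divided by counts of KRT8 (y axes, shared log scale), 1 point per library, by group; the one-library files stand left of the grey line. KRT18 to KRT8 lies between 0.349 and 0.474 over both file sets, with the day 18 samples lower in the table. KRT7 to KRT8 falls to 0.00708 in one MesoT FCS library and 0.00312 in one MesoT-derived MLC library.

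KRT7, a type II keratin used as a marker of mesothelium and ductal epithelia, varied mostly between replicates. It was at 176 and 73.5 CPM in day 18 MesoT, 199 and 12.7 in MesoT FCS, 238 and 147 in MLC and 419 in the library labelled smooth muscle. In the table it was at 185 and 74.4 CPM at day 18, 71.2 and 143 at day 22 and 73.4 and 6.81 in MesoT-derived MLC. One replicate of MesoT FCS and one of MesoT-derived MLC lay far under the other. The largest log2 fold change in the one-library files, the library labelled smooth muscle against MesoT FCS, was 1.98 ± 1.29 (edgeR adjusted p = 0.321), and MesoT-derived MLC against MesoT gave -1.56 ± 0.95 (adjusted p = 0.314). Without the first MesoT FCS replicate KRT7 rose by 3.91 on the log2 scale in MLC against MesoT FCS (edgeR adjusted p = 0.0181), and likewise in the library labelled smooth muscle (5.04, adjusted p = 0.0342). KRT7 and KRT19 did not run together (r = 0.183 and 0.267). The 5 genes closest to KRT7 in the one-library files were F3, TGFBR1, PSMG3, TSPAN15 and the desmosomal cadherin DSC3 (r from 0.923 to 0.970).

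KRT19, the smallest type I keratin, was the simple keratin that separated most groups. It was at 199 and 153 CPM in day 18 MesoT, 388 and 411 in MLC, 1059 and 652 in MesoT FCS and 1265 in the library labelled smooth muscle. No library of one of these groups overlapped another group, and the order from day 18 through MLC and MesoT FCS to the lone library was the same on KRT19 to KRT8 count ratios, where one MLC library (0.284) came close to one MesoT FCS library (0.289). The log2 fold change of KRT19 from day 18 was 2.28 ± 0.30 in MesoT FCS (adjusted p = 0.00738, edgeR), 1.19 ± 0.29 in MLC (adjusted p = 0.0342) and 2.85 ± 0.34 in the library labelled smooth muscle (adjusted p = 0.0167). It was lower in MLC than in MesoT FCS (-1.10 ± 0.29, edgeR adjusted p = 0.0246), while MesoT FCS and the library labelled smooth muscle were not told apart (0.56 ± 0.35, adjusted p = 0.296). The call in MesoT FCS against day 18 held in all 16 alternatives (edgeR, DESeq2 or limma adjusted p up to 0.0342). That in MLC was lost without either MLC replicate or without the second day 18 replicate (edgeR adjusted p = 0.156, 0.178 and 0.0769). The call of the library labelled smooth muscle against day 18 was lost without either MLC replicate (edgeR adjusted p = 0.0835 and 0.0827). Likewise the lower level in MLC than in MesoT FCS was not called without either MLC replicate, without the first MesoT FCS replicate or on library totals alone (edgeR adjusted p = 0.139, 0.126, 0.102 and 0.0520). KRT19 was also higher in the library labelled smooth muscle than in MLC (1.66 ± 0.34, edgeR adjusted p = 0.0155), a call lost without either MLC replicate (0.103 and 0.0926).

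In the table KRT19 was at 242 and 180 CPM at day 18, 204 and 337 at day 22 and 426 and 218 in MesoT-derived MLC, with overlapping groups. The log2 fold change of MesoT-derived MLC against MesoT was 0.43 ± 0.35 (edgeR adjusted p = 0.437). Closest to KRT19 in the one-library files were SELENOO, MAP3K6, BCL9L, TCIRG1 and IRF3 (r from 0.989 to 0.995 over 7 libraries), none of them a keratin or junction gene.

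KRT20, the type I keratin of gut epithelium, had counts in both kinds of MLC and hardly any elsewhere. In the one-library files it had 277 and 270 counts in MLC (3.66 and 3.84 CPM) and 0 in each of the other 5 libraries. Set against 3 counts over the group, MLC were at least 75.4-fold higher than day 18 MesoT (edgeR adjusted p = 0.00586), at least 50.4-fold higher than MesoT FCS (adjusted p = 0.00363), and the library labelled smooth muscle was at least 30.7-fold lower than MLC (adjusted p = 0.0112). The day 18 bound applies to these files only, as the second day 18 sample had 6 counts in the table. Over 16 alternatives the lowest log2 fold change from day 18 to MLC was 5.38, against 10.18 in the full fit. In the table KRT20 had 103 and 235 counts in MesoT-derived MLC (3.52 and 8.04 CPM) against 0 and 6 at day 18 and 0 and 2 at day 22. MesoT-derived MLC did not overlap MesoT, and the log2 fold change was 6.43 ± 0.89 (edgeR adjusted p = 0.0196). KRT20 reached the filter level only in MLC in the one-library files and only in MesoT-derived MLC in the table. In both sets it was thus tested only through the group where it was high, so its adjusted p-values are no support for a rise.

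The KRT20 calls rested on few libraries. Without either MLC replicate the call against day 18 was lost (edgeR adjusted p = 0.0625 and 0.0642), as was that of the library labelled smooth muscle against MLC (0.0796 and 0.0805). That against MesoT FCS was kept. In the table the call was lost without either day 22 or either MesoT-derived MLC replicate (edgeR adjusted p from 0.0527 to 0.139). Markers of other epithelia were compared in the same libraries. Of 6 gut epithelial genes tested, 3 were higher in MLC than at day 18 and 5 in MesoT-derived MLC than in MesoT, among them LGALS4, a gut lectin (log2 fold change 6.61 ± 0.61 and 5.57 ± 0.53, edgeR adjusted p = 0.00252 and 0.0122). The 8 gut genes summed to 121 and 96.3 CPM in MLC against 68.3 and 87.0 at day 18, and to 62.2 and 133 in MesoT-derived MLC against 74.6 to 141 in MesoT, so that this sum was not above MesoT there. EPCAM, an epithelial adhesion gene on the gut list, had a log2 fold change of -1.43 ± 0.33 in MesoT-derived MLC (edgeR adjusted p = 0.0501). CDX2, an intestinal factor on the gut list, was at 1.52 and 0.783 CPM in MLC against 0.451 and 0.102 (log2 fold change 2.04 ± 0.86, edgeR adjusted p = 0.15). It was higher in MesoT-derived MLC (0.990 and 4.72 CPM, 3.53 ± 0.79, edgeR adjusted p = 0.0460), a call lost without the second day 18, either day 22 or either MesoT-derived MLC replicate. A link between CDX2 and KRT20 was not tested. The 8 hepatocyte genes summed to 136 and 62.5 CPM in MLC against 3.32 and 2.94 at day 18, and to 115 and 266 in MesoT-derived MLC against 1.47 to 4.69 in MesoT, with 6 of 8 and 7 of 7 tested called higher. Over all genes the shares higher were 7.83% and 6.63%. Without either MLC replicate 2 gut and 3 hepatocyte genes were called higher than at day 18. In MesoT-derived MLC 0 of either list were called without the first day 22 replicate or the second MesoT-derived MLC replicate, where 0 genes were called in all, and 0 gut and 4 hepatocyte genes without the second day 22 replicate. Without the second day 18 replicate 2 gut genes were called there. No gut or hepatocyte gene was at 0 in the 2 MLC libraries, and 1 gut gene was at 0 in 1 MesoT-derived MLC library. Amnion and surface ectoderm genes, 7 in number, summed to 961 and 1063 CPM in MLC against 213 and 213 at day 18, with 3 called higher and 1 lower, but to 193 and 59.9 in MesoT-derived MLC against 243 to 385 in MesoT, with 0 higher and 2 lower. Without either MLC replicate 2 of the 7 were called higher in MLC and 0 lower. In MesoT-derived MLC 0 were called without either day 22 replicate or the second MesoT-derived MLC replicate. The 6 urothelial genes summed to 29.2 and 21.2 CPM in MLC against 13.1 and 13.9 at day 18 (1 higher, 1 lower), and to 12.3 and 6.57 in MesoT-derived MLC against 9.66 to 23.5 in MesoT (0 and 0 of 4 tested). The part of any of these cells in the KRT20 result was not tested.

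The stratified keratins were nearly absent from MesoT, MesoT FCS and MLC and abundant in the library labelled smooth muscle. KRT5 was at 870 CPM there (21383 counts), against 0 and 0.307 in day 18 MesoT, 0 and 0 in MesoT FCS and 0.0528 and 0.0285 in MLC. KRT14, its type I partner, was at 259 CPM, against 0.0966 and 0.0683, 0.0446 and 0, and 0.766 and 0.185. The basal pair was thus present together in that library and at under 1 CPM in the other 6. KRT6A was at 741 CPM, against 0.0644 and 0.0342 at day 18, 0 and 0 in MesoT FCS and 0.0528 and 0.0142 in MLC. KRT16 was at 628 CPM, against 0.193 and 0.0342, 0.0446 and 0.112, and 0.925 and 0.256. No library of another group came near these levels.

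KRT17, a keratin of basal and injured epithelia, was at 319 CPM in the same library but, unlike the other 4, was also measurable in MesoT, at 5.35 and 1.81 CPM at day 18 and 2.54 and 2.28 in MLC. In edgeR, the log2 fold change of the library labelled smooth muscle from day 18 was 12.47 ± 0.96 for KRT5 (adjusted p = 0.0136), 11.56 ± 0.89 for KRT14 (0.00968), 12.37 ± 0.92 for KRT16 (0.00968) and 6.48 ± 0.60 for KRT17 (0.0126). Leaving out each library in turn moved the KRT5 value between 11.43 and 18.10, well beyond its SE. The 9 day 18 counts of KRT5 were all in the second replicate. KRT6A had 3 counts over both day 18 libraries, and its CPM ratio was 14902 (95% exact binomial counting interval 5098 to 72267, edgeR adjusted p = 0.00524). KRT6A passed the filter on low counts only through the library labelled smooth muscle, where it was high. Its p-values in the comparisons of that library are therefore no support for a difference. Against MesoT FCS, where both were at 0 counts, KRT5 was at least 11692-fold and KRT6A at least 9960.5-fold higher (edgeR adjusted p = 0.00487 and 0.00124). KRT14 and KRT16, with 1 and 3 counts over both MesoT FCS libraries, had CPM ratios of 10447 (1874 to 412703) and 8438 (2887 to 40922). KRT17 differed by 10.62 ± 0.76 on the log2 scale (edgeR adjusted p = 0.00279). All 5 were also called against MLC (adjusted p from 0.000344 to 0.00129) and kept those calls in the 13 alternatives run. Against day 18, KRT5 and KRT17 lost the call without either MLC replicate (edgeR adjusted p from 0.0761 to 0.0782), and no keratin was called when only the groups compared entered the fit (adjusted p from 0.0616 to 0.129), which leaves 1 degree of freedom for the spread. The same fit ended all 5 calls against MesoT FCS (edgeR adjusted p from 0.0544 to 0.0559).

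The stratified keratins made up 33.6% of the counts on the 10 genes in that library (exact binomial interval 33.4% to 33.8%), between 0.00349% and 0.126% in the other one-library files and between 0.102% and 0.433% in the table. These intervals cover counting error only. All 10 genes together took 0.760% of its counts, and 0.262% to 0.523% of the counts of other libraries. KRT16 to KRT6A counts stood at 0.847 in that library and KRT14 to KRT5 at 0.298. Markers of basal epidermis moved with these keratins: the 14 listed genes, which hold none of the 10 keratins, summed to 3739 CPM against 180 to 352 in the other 6 libraries, none was at 0, and 12 of 14 were called higher than at day 18 in edgeR, where 5.08% of all genes were. Without either MLC replicate 0 of the 14 were called, of 7 genes in all, and 0 with only the groups compared. The list was chosen with earlier results of these data known, so it is not separate support for the keratin levels. TP63, the master factor of stratified epithelium, was at 82.2 CPM against 7.41 and 9.02 at day 18, and COL17A1, a hemidesmosomal collagen, at 544 against 2.96 and 0.888. The 10 smooth muscle genes summed to 1267 CPM there, against 1696 and 294 at day 18 and 7642 and 1939 in MesoT FCS. The part of such cells in the keratin result was not tested.

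**Figure D4:**
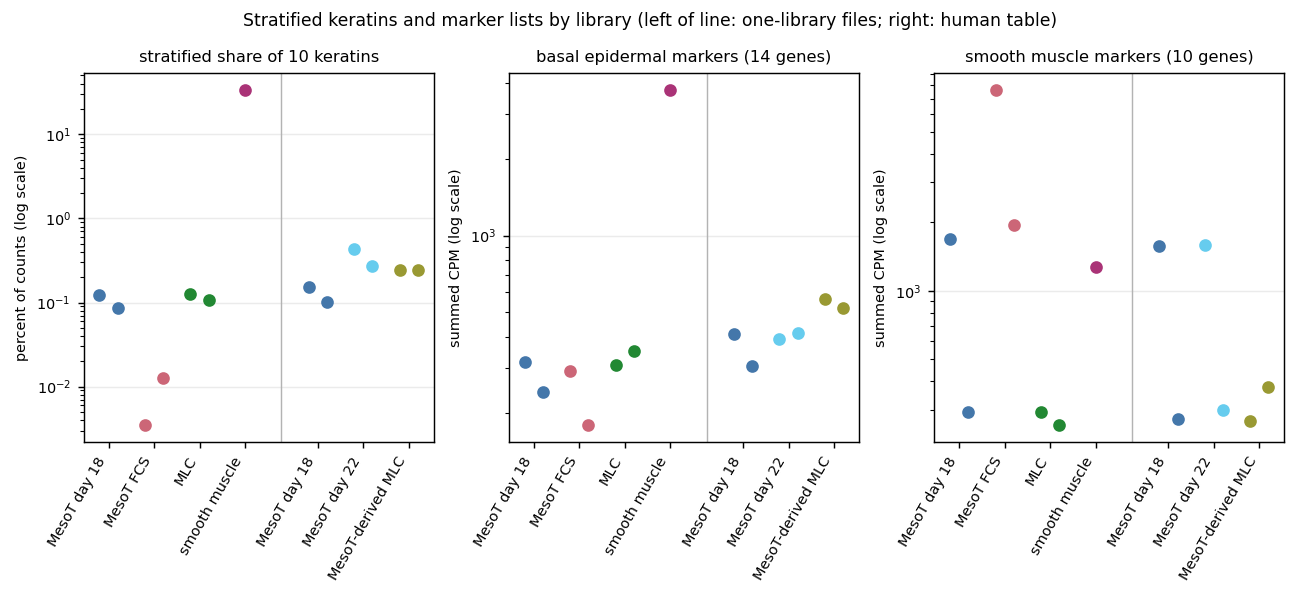
Left, counts on the 5 stratified keratins as a percent of counts on the 10 keratins; middle and right, summed CPM of 14 basal epidermal and 10 smooth muscle marker genes (all y axes logarithmic), 1 point per library, by group. The library labelled smooth muscle stands at 33.6% and 3739 CPM in the first panels and within the range of the MesoT libraries in the last.

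In MesoT FCS, the serum-grown cells, KRT17 was at 0.134 and 0.279 CPM, under every other one-library file. It fell from day 18 MesoT by 4.14 ± 0.70 on the log2 scale (edgeR adjusted p = 0.0125) and was higher in MLC than in MesoT FCS (3.57 ± 0.70, adjusted p = 0.00902). Without either MesoT FCS replicate the first call was lost (edgeR adjusted p = 0.0708 and 0.0509), and without the first replicate the second call was lost too (0.0633). KRT17 was not called in MLC against day 18 (-0.57 ± 0.48, edgeR adjusted p = 0.417) but was without the second day 18 replicate (-1.16, adjusted p = 0.0183). KRT14 was also called higher in MLC than in MesoT FCS (edgeR adjusted p = 0.0451) on 71 counts against 1, a CPM ratio of 19.6 (counting interval 3.41 to 786). That call was lost in 6 of 12 alternatives, limma voom among them (adjusted p = 0.0750).

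At day 22 the 8 keratins tested had edgeR adjusted p of 1, and DESeq2 and limma voom called none either. At an unadjusted p under 0.05 there was 1 of the 8 and 171 of all genes. That 1 was KRT6A, with 16 and 19 counts at day 22 against 7 and 4 at day 18 (log2 fold change 1.57 ± 0.62). KRT6A passed the filter only through the day 22 columns, where it was high, so its p is no support for a rise. KRT17 was at 11.3 and 6.61 CPM at day 22 against 6.20 and 1.72 at day 18 (1.17 ± 0.61), without overlap. KRT5, KRT14 and KRT16 stayed under 1 CPM in all 6 table columns.

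MesoT-derived MLC had 0 and 1 counts of KRT6A against 4 to 19 in the 4 MesoT columns. The call as lower (edgeR adjusted p = 0.0420) rested on that 1 count, with a CPM ratio of 0.0416 (counting interval 0.00103 to 0.244), and was lost in 9 of 15 alternatives, the fit with the replicate number as a block among them (adjusted p = 0.0508). KRT6A had also entered this test only through the day 22 columns, where it was highest. KRT17 was at 9.12 and 7.59 CPM, within the MesoT range (0.49 ± 0.51, edgeR adjusted p = 0.554).

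KRT8 and KRT18 have many processed pseudogenes whose reads a counter can share with the parent, so their values are uncertain. The one-library files named 51 copies of KRT8 and 67 of KRT18. Counts on KRT8 copies came to 2.2% and 2.28% of KRT8 in MLC and 7.53% to 8.04% in the other one-library files. Counts on KRT18 copies came to 0.542% and 0.712% of KRT18 in MLC and 4.67% to 5.33% in the others. The MLC libraries thus stood apart, and MesoT-derived MLC in the table, at 4.31% and 4.45% for KRT8 and 4.84% and 4.66% for KRT18, lay under MesoT. Genes named as antisense also stood apart, at 2751 and 2812 counts per 1000000 in MLC against 6701 to 8801 in the other one-library files, while the day 18 samples had 2293 and 3521 in the table. What part this has in the MLC comparisons of the one-library files was not tested. With copies added to the parent, the log2 fold change from day 18 to MLC was -0.49 for KRT8 and -0.66 for KRT18, still not called (edgeR adjusted p = 0.466 and 0.365). KRT16 copies had 2685 counts in the library labelled smooth muscle against 15433 on KRT16 itself.

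**Figure D5:**
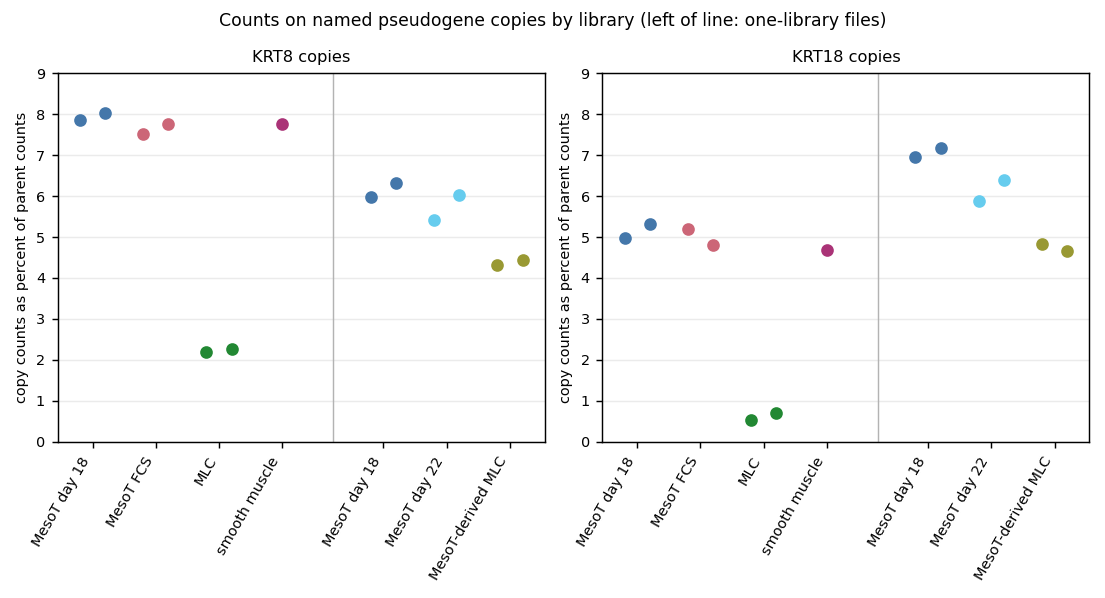
Counts on named pseudogene copies of KRT8 (left) and KRT18 (right) as a percent of counts on the parent gene (y axes, linear from 0), 1 point per library, by group. Both MLC libraries lie at 0.542% to 2.28%, under every other library in either panel.

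Other keratins were few. Of 55 keratin symbols 45 were not among the 10 followed here, and 8 of those passed 10 CPM in any one-library file and 3 in the table. KRT10, a type I keratin of suprabasal epidermis, was at 14.8 to 46.4 CPM in the 7 files and 24.7 to 33.9 in the table, with no call against day 18. KRT6B, a close copy of KRT6A, was at 45.3 CPM in the library labelled smooth muscle and at most 0.0644 in the other one-library files, and KRT1, the suprabasal partner of KRT10, at 14.0 CPM against 0 in the other 6 files. KRT6A, KRT6B and KRT6C are near-identical, so reads can be split between them. KRT23 was higher in MLC than at day 18 (log2 fold change 2.86 ± 0.46, edgeR adjusted p = 0.00858) and lower than at day 18 in MesoT FCS (-3.60 ± 0.60, adjusted p = 0.0120). Without either MLC replicate 0 keratins outside the 10 were called higher in MLC. In MesoT-derived MLC it was at 24.8 CPM in one library and 1.54 in the other.

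Desmosomes and hemidesmosomes are the junctions that anchor keratin filaments. In the library labelled smooth muscle 9 of 14 desmosomal genes were called higher than at day 18 and 0 lower, among them DSG3, the basal desmoglein (68.6 against 0.0322 and 0.0342 CPM, although the same day 18 samples had 7.57 and 9.86 CPM in the table), and PKP1, a desmosomal plaque protein (log2 fold change 10.51 ± 0.79, edgeR adjusted p = 0.00968). In MesoT FCS 0 were higher than at day 18 and 5 lower, including PKP2 (-2.24 ± 0.24, edgeR adjusted p = 0.00484), whereas KRT8 and KRT18 were not called there. In MLC 2 were higher than at day 18 and 0 lower, PKP3 (2.13 ± 0.23, edgeR adjusted p = 0.00226) and DSG2 (1.68 ± 0.20, adjusted p = 0.00288). In MesoT-derived MLC 2 of 12 were higher, PKP2 (1.08 ± 0.17) and DSC1 (1.21 ± 0.25) (edgeR adjusted p = 0.0239 and 0.0402). The median log2 fold change of the 14 genes was 1.97 in the library labelled smooth muscle, -1.10 in MesoT FCS and 0.37 in MLC, against -0.08, -0.16 and -0.03 over all genes. The shares of all genes called higher and lower were 5.08% and 3.58% in the library labelled smooth muscle, 13.0% and 14.4% in MesoT FCS, 7.83% and 16.8% in MLC and 6.63% and 3.32% in MesoT-derived MLC, and the counts on the lists below are read against the same shares. Without either MLC replicate 0 desmosomal genes were called in the library labelled smooth muscle, of 7 genes in all, and 0 with only the groups compared. In MesoT FCS 3 were lower without an MLC or a MesoT FCS replicate, and in MesoT-derived MLC 0 were called without any one of the day 22 or MesoT-derived MLC replicates.

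Of 11 hemidesmosomal genes and keratin linkers, 5 were higher in the library labelled smooth muscle than at day 18 and 0 lower, and 0 were called without either MLC replicate or with only the groups compared. ITGB4, the integrin chain that binds the keratin linker plectin, was at 442 CPM there against 20.6 and 19.9. In MesoT FCS ITGB4 fell by 4.08 ± 0.28 on the log2 scale (edgeR adjusted p = 0.00226) while PLEC, plectin itself, rose by 3.04 ± 0.28 (adjusted p = 0.00381). In all, 3 of the 11 were higher there than at day 18 and 4 lower, and 2 and 2 without either MLC replicate, where 2294 and 2298 genes were called in all in place of 6301. In MesoT-derived MLC ITGB4 was higher (2.02 ± 0.23, edgeR adjusted p = 0.0148), and 0 of the list were called higher without either day 22 replicate or without the second MesoT-derived MLC replicate.

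Among 16 listed epithelial regulators of keratin genes, 9 were higher in the library labelled smooth muscle than at day 18 and 0 lower, with TP63 at 3.32 ± 0.34 on the log2 scale (edgeR adjusted p = 0.0141), and 0 were called without either MLC replicate or with only the groups compared. In MesoT FCS 1 was higher than at day 18 and 12 lower, and 0 and 12 without either MLC replicate. GRHL2, a grainyhead factor, was at 34.3 and 43.0 CPM at day 18, 64.9 and 66.3 in MLC and 0 and 0 in MesoT FCS, where KRT19 was higher than at day 18. In MLC 3 of 16 were higher and 0 lower, among them TFAP2A (1.55 ± 0.39, edgeR adjusted p = 0.0373), and 0 without either MLC replicate. In MesoT-derived MLC CDX2 was the 1 called.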

How the data were processed

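Poly-A RNA-seq was analysed for 11 human libraries in 6 groups; day 18 MesoT was in both file sets. Mouse and chromatin samples were not analysed here. The files deposited by the authors hold unnormalized counts, as whole numbers, for each Ensembl gene. hg19, featureCounts, Subread 1.4.2, Bowtie2 2.2.9 and TopHat2 2.0.13 are named, without roles, per the submitters' processing notes. The annotation release and the strand setting were not given in the sources used.

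Counts were fitted with edgeR 4.0.16 in R 4.3.3 (TMM, filterByExpr with a minimum count of 10, quasi-likelihood F test, Benjamini-Hochberg over all genes tested), over all 7 one-library files or all 6 table columns, with 3 residual degrees of freedom. Symbols came from RefSeq. A group at 0 counts was set to 3 counts. A ratio resting on 1 to 3 counts was given its 95% exact binomial interval. The SE after ± is not an edgeR output. It is the absolute log2 fold change divided by the square root of the quasi-likelihood F value. Likeness was Pearson r of log2 CPM (prior count 2) over genes with a mean of at least 3. The edgeR step was tested on simulated data. DESeq2 1.42.0 and limma 3.58.1 were alternatives, and figures used matplotlib 3.10.9.

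The members and gene lists were chosen with earlier results of these data known. The text names all 10 keratins, up to 3 called genes of smallest p per other list and comparison, and the 5 genes most like each abundant simple keratin. Markers used to check labels, other genes outside this rule, and KRT10, KRT80, KRT81, KRT84, VIM, DES, DSG3, GRHL2 and CDX2 in MLC were named after their values were seen.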

Additional observations from a re-analysis of the deposited data

How the results depend on the processing

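With 2 libraries a group, and 1 labelled smooth muscle, most calls depend on single libraries. Leaving out each library in turn gave 0 to 3 keratins called for MLC against day 18 (2 in the full fit), 1 to 3 for MesoT FCS against day 18 (2), 2 to 4 for MLC against MesoT FCS (4), 3 to 6 for the library labelled smooth muscle against day 18 (6), and 0 to 1 for MesoT-derived MLC against MesoT (2). For MLC against day 18, no filter on low counts gave 4 and DESeq2 gave 4. With only the groups compared in the fit, the library labelled smooth muscle gave 0 against day 18 and 0 against MesoT FCS, with 1 residual degree of freedom. For MesoT-derived MLC, no filter gave 1. Day 18 counts from the other file set gave 1 there and 1 for day 22 against day 18.

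Replicate numbers were not taken as pairs in the main fits. Replicate differences correlated at 0.01 to 0.07 between groups of the one-library files. In the table they correlated at 0.56 between day 18 and day 22, and at -0.01 and -0.06 between these and MesoT-derived MLC. Day 18 and day 22 replicates thus shared a difference that the main fit treated as independent. With the replicate block, MesoT-derived MLC had 1 keratin called, KRT7 at day 22 turned to 0.17, and no other count of called keratins moved by over 1.5 times.

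Directions that turned belonged to differences that were not called. Leaving out each library gave log2 fold changes of KRT8 from -0.78 to 0.16 (MLC against day 18), -0.34 to 0.70 (MesoT FCS against day 18), -0.11 to 0.71 and -0.43 to 0.60 (library labelled smooth muscle against day 18 and MesoT FCS), -0.63 to 0.28 (day 22) and -0.0025 to 0.45 (MesoT-derived MLC). For KRT18 they were -0.76 to 0.46 (MesoT FCS against day 18), -1.05 to 0.17 (MLC against MesoT FCS), -0.21 to 0.56 and -0.32 to 0.90 (library labelled smooth muscle against day 18 and MesoT FCS) and -0.57 to 0.28 (day 22). For KRT7 they were -3.29 to 0.68 (MesoT FCS against day 18), -0.055 to 3.91 (MLC against MesoT FCS) and -0.87 to 0.51 (day 22), for KRT19 -0.047 to 0.67 (day 22) and -0.13 to 0.86 (MesoT-derived MLC), and for KRT17 -1.16 to 0.50 (MLC against day 18). Day 18 counts from the other set turned KRT18 to 0.022 (MLC) and 0.57 (MesoT FCS), KRT7 to 0.035 (MesoT FCS), and, in MesoT-derived MLC, KRT8 to -0.051 and KRT18 to -0.049. Library totals alone turned KRT8 to -0.22 (MesoT FCS) and, for the library labelled smooth muscle, KRT8 to -0.0935 and KRT18 to -0.21 against day 18. For KRT8 in the latter against MesoT FCS, the values were 0.015 with DESeq2 size factors, 0.12 with library totals, 0.0027 without a filter, 0.015 with DESeq2, 0.090 with limma voom and 0.057 with only the groups compared. The cause was not tested.

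Over all genes, calls for MLC against day 18 went from 5667 to 1714 without an MLC replicate and 9238 with the other day 18 counts. For MesoT FCS against day 18 they went from 6301 to 2294 without an MLC replicate, 2783 and 2985 without a MesoT FCS replicate, 3253 with only the groups compared and 12759 with the other day 18 counts. For MLC against MesoT FCS they went from 11272 to 4966 without an MLC replicate. For the library labelled smooth muscle against day 18 they went from 1998 to 7 without either MLC replicate, 4293 without the first day 18 replicate, 4925 with DESeq2, 7935 with the other day 18 counts and 0 with only the groups compared. Against MesoT FCS they went from 4123 to between 1027 and 6524 without a library, 6412 with DESeq2 and 0 with only the groups compared, and against MLC from 7918 to 2505 without an MLC replicate and 14131 with only the groups compared. Day 22 went from 0 to 5273 with the other day 18 counts, and MesoT-derived MLC from 2220 to between 0 and 309 without a day 22 or MesoT-derived MLC replicate, 4604 with DESeq2 and 5319 with the other day 18 counts. Library totals alone shifted the median log2 fold change of all genes from -0.16 to -0.67 for MesoT FCS against day 18, from -0.08 to -0.47 for the library labelled smooth muscle against day 18 and from 0 to 0.35 for MLC against MesoT FCS.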

Other observations

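KRT81, a hair keratin, was at 31.4 CPM in the first MesoT FCS replicate and 0.614 in the second, with at most 3.30 CPM in the other one-library files. KRT84, also a hair keratin, was at 11.8 CPM in the library labelled smooth muscle and at most 0.0142 CPM in the other 6 files. KRT80, a type II keratin, was at 43.2 CPM in the library labelled smooth muscle, 20.7 and 5.81 in day 18 MesoT and 7.13 and 3.47 in MLC, and the first of these was not called against day 18 (edgeR adjusted p = 0.241) but was against MLC (log2 fold change 3.02 ± 0.87, adjusted p = 0.0424). In the one-library files, 18 of the 45 keratin symbols outside the 10 had their highest CPM in the library labelled smooth muscle, and 8 had no count in any one-library file.

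Filaments of other classes differed as well. VIM, the filament gene of mesenchymal cells, was at 2128 and 1381 CPM in day 18 MesoT, 3333 and 2497 in MesoT FCS, 2394 and 2619.7 in MLC and 2979 in the library labelled smooth muscle. DES, the muscle filament gene, was at 89.2 and 92.0 CPM in MLC against 3.12 and 1.84 at day 18 (log2 fold change 5.19 ± 1.13, edgeR adjusted p = 0.0237) and at 9.03 in the library labelled smooth muscle. The other smooth muscle genes did not rise with it. Of the 10 listed, DES was the only 1 called higher in MLC than at day 18, and 5 were lower. Over all genes 7.83% were higher and 16.8% lower. The list had a median log2 fold change of -2.40, against -0.03 over all genes.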
